A study of Mus musculus with 8 samples.

Results

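Phase II conjugating enzymes attach a polar group to drugs, hormones, bile acids and bilirubin, and the liver expresses many of them. The genes described here are the UDP-glucuronosyltransferases of the *Ugt1a*, *Ugt2a*, *Ugt2b* and *Ugt3a* subfamilies, the sulfotransferases *Sult1* to *Sult5*, and the glutathione S-transferases of the alpha, mu, pi, theta and omega classes. Members were chosen by gene symbol and by an average level above the lowest value of the table, which left 56 of 18937 genes with reads. In all 61 genes had a matching symbol, and 5 of these had no reads.

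The livers came from adult male C57BL/6NHsd mice killed after a 6 h fast, with 4 wild-type (WT) and 4 homozygous V227A animals. V227A is a missense variant of *Ppara*, the gene for a nuclear receptor that drives the hepatic response to fasting. The allele was made by injecting zygotes with the adenine base editor NG-ABEmax, descends from a heterozygous founder backcrossed to C57BL/6NHsd, and is carried in every tissue. The colony was bred as heterozygotes, and each library was made from liver RNA by stranded poly-A selection and paired-end sequencing.

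The values used are the authors' average log2 CPM (read counts scaled to a common library size) for each gene over both genotypes together. No value per mouse or per genotype was analysed here, so levels carry no SD, no comparison of V227A with WT was made, and differences between genes were not tested. Levels are given in CPM after the floor of the table, 0.0728 CPM, was taken off. They are compared between genes per kb of the longest coding GENCODE transcript that has a RefSeq counterpart (CPM per kb). The mean effective library size came to 27473997 reads, and the size of each library is unknown. Across the 8 libraries a count of 0 allows up to 3 reads, or 0.0136 CPM, for counting error only.

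Glucuronidation joins glucuronic acid from UDP-glucuronic acid to the substrate in the endoplasmic reticulum. Sulfation moves a sulfonate group from the cytosolic donor PAPS, and glutathione S-transferases join the thiol of glutathione to electrophiles. The conjugates are more soluble in water and leave the hepatocyte for bile or blood through ATP-driven and other transporters.

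The marker genes were those of liver, with hepatocyte transcripts far above those of other cells. All 8 hepatocyte markers were above 10 CPM, led per kb by *Alb*, the albumin gene, at 34208 CPM per kb. The 6 cholangiocyte markers summed to 35.2 CPM, with *Spp1* the most abundant, and *Cftr* was at 0.0592 CPM. The 5 Kupffer cell markers summed to 159.9 CPM, the 5 endothelial markers to 117.3 CPM and the 5 stellate cell markers to 145.2 CPM. The 4 red blood cell markers measured had the highest sum of the lists of other cells, 230.8 CPM, with 3 above 10 CPM and *Alas2* the most abundant in CPM. Of the 7 intestinal markers, *Alpi* and *Cdx2* had no reads, and *Fabp2*, a fatty acid binding protein gene, gave 86.1 of their summed 86.5 CPM. The 5 kidney tubule markers summed to 0.0547 CPM and the 5 lymphocyte markers to 2.12 CPM. These are bulk tissue values, in which fewer cells of a type and less RNA per cell cannot be told apart.

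Glutathione conjugation had the highest summed level of the 3 classes and sulfation the lowest. The 22 glutathione S-transferase genes summed to 5352 CPM, the 18 glucuronosyltransferase genes to 2765 CPM and the 16 sulfotransferase genes to 1244 CPM. Together the 56 genes took 0.936% of all reads, of which glutathione conjugation held 57.2%, glucuronidation 29.5% and sulfation 13.3%. Glutathione S-transferase transcripts are short, and the gap widened per length. Per kb the sums were 4635 for glutathione conjugation, 1284 for glucuronidation and 659.8 for sulfation, or 70.5%, 19.5% and 10.03% of the 3 classes. The order of the classes was the same in CPM, per transcript kb and per coding kb, but on the last scale glucuronidation exceeded sulfation by only 1.17-fold, against 1.95-fold per transcript kb.

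**Figure D1:**
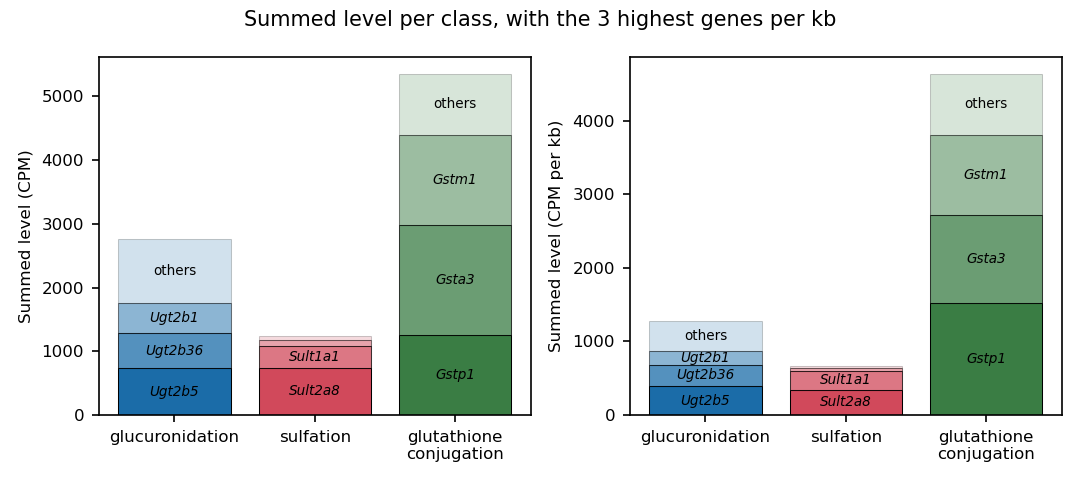
Summed average level of the members of each class in CPM (left axis) and in CPM per kb of transcript (right axis). Bars start at 0, and segments show the 3 members of each class with the highest level per kb, with the remaining members on top, so that 3 genes make up 96.2% of the sulfation bar per kb but 67.8% of the glucuronidation bar.

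The classes also differed in how the level was spread over their genes. Of the 56 members, 15 lay at 100 CPM or more, 18 from 10 to 100 CPM, 6 from 1 to 10 CPM and 17 under 1 CPM. Glucuronidation had 7 genes at 100 CPM or more, 6 from 10 to 100 CPM, 2 from 1 to 10 CPM and 3 below. Glutathione conjugation had 6, 9, 2 and 5 genes in the same bands. Sulfation had 2, 3, 2 and 9, so most of its genes had few reads while a few were abundant. The highest 3 genes per kb held 67.8% of glucuronidation, 82.3% of glutathione conjugation and 96.2% of sulfation. As a background, the median member had 21.6 CPM and the median of all genes with reads 3.64 CPM, and 26.8% of members against 6.48% of all genes reached 100 CPM.

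**Figure D2:**
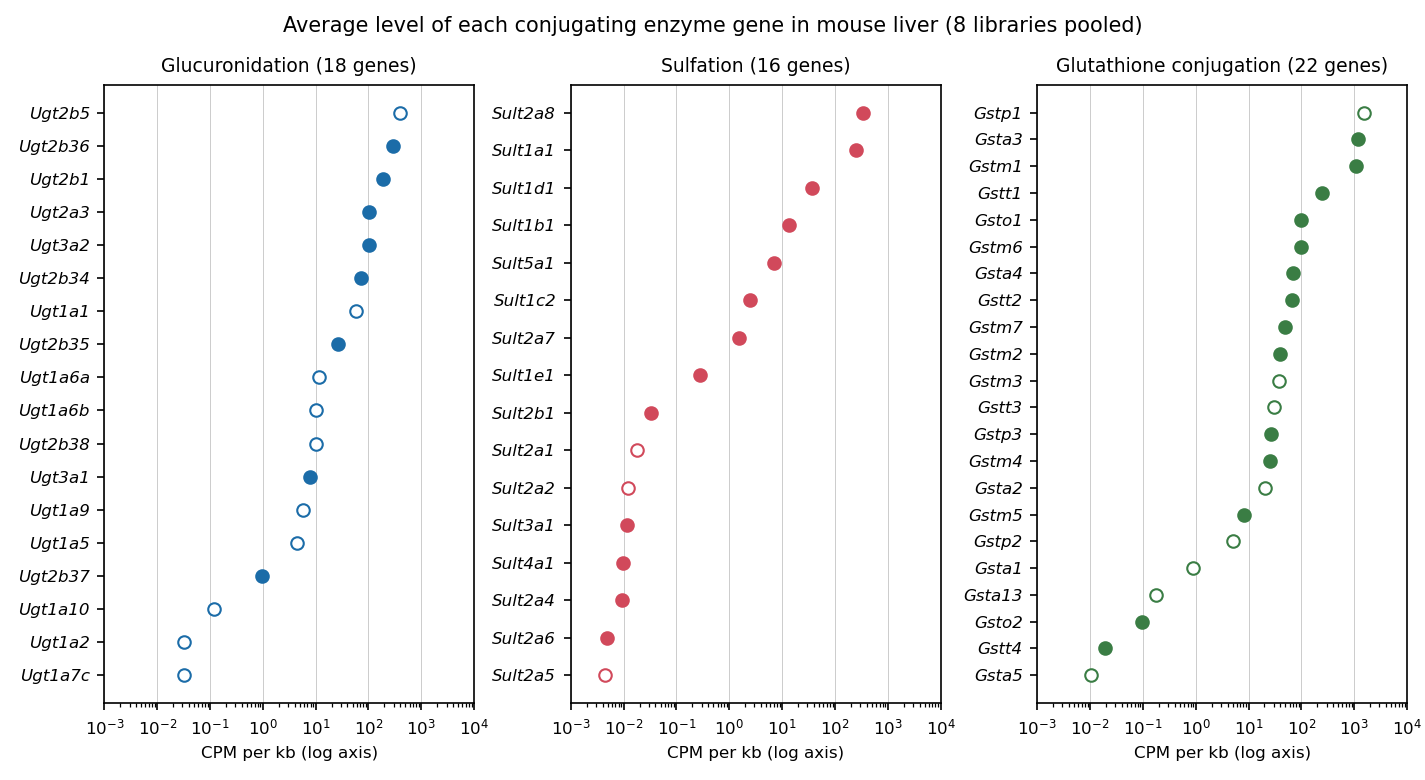
Average level of the 56 members in CPM per kb on a log axis, by class, each point 1 gene pooled over the 8 libraries. Open points mark the 21 members in which more than 10% of the 100-base windows of the transcript also occur in a transcript of another gene, so their reads can be shared; *Gstp1* at 1529 and *Sult2a5* at 0.0044 CPM per kb mark the ends of the range.

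Most of the glucuronidation level came from *Ugt2b*, whose enzymes act on steroids, bile acids and many drugs. The 7 *Ugt2b* genes summed to 981.0 CPM per kb, against 109.2 for *Ugt3a*, 103.4 for *Ugt2a* and 90.4 for *Ugt1a*. The last place of *Ugt1a* rests on this scale. Scaled to unshared bases, as described below, its sum would be 218.4 or 596.4 CPM per kb, above *Ugt3a* and *Ugt2a*. On the latter scale *Ugt1a1*, at 336.9, would also exceed *Ugt2b36*, but that scale drops bases under exons of either strand although the libraries were stranded. With exons of its own strand only, *Ugt1a1* keeps 913 bases and would stand at 142.1 CPM per kb, below *Ugt2b36*. *Ugt2b5* led with 394.6 CPM per kb and ranked 176 among the 17956 genes with reads and a known length. *Ugt2b36* followed with 291.6 and *Ugt2b1* with 184.6 CPM per kb. Next came *Ugt2b34* with 72.5 and *Ugt2b35* with 26.6 CPM per kb. *Ugt2b38* and *Ugt2b37*, the closest relatives of *Ugt2b5*, stood much lower, at 10.2 and 0.945 CPM per kb.

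In the *Ugt2a* subfamily *Ugt2a3* had 103.4 CPM per kb. *Ugt2a1* and *Ugt2a2*, which share their downstream exons and are best known from olfactory tissue, were listed with no reads. Only 30 of the 2570 bases of *Ugt2a1* and 138 of the 2539 of *Ugt2a2* lie in no exon of another gene, so the counting of shared reads could also give this 0, and their absence is uncertain. In *Ugt3a*, whose human counterparts use UDP-sugars other than UDP-glucuronic acid, *Ugt3a2* had 101.3 and *Ugt3a1* 7.90 CPM per kb. The gene pattern counts both with glucuronidation, and together they held 253.7 of its 2765 CPM.

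The *Ugt1a* locus is built differently from most of the others. Its genes lie on the plus strand at chr1:88055388-88220002 (GRCm38), and in the transcript used for each gene 1 or more upstream exons are spliced to 4 exons that all 8 genes share. The upstream exons are not always exclusive, since all 2198 windows of 100 bases in *Ugt1a6a* also occur in annotated transcripts of *Ugt1a7c*. *Ugt1a1*, the bilirubin glucuronosyltransferase, had 58.3 CPM per kb or 64.5% of the *Ugt1a* sum. *Ugt1a6a* and *Ugt1a6b*, which code for phenol-conjugating enzymes, had 11.4 and 10.3 CPM per kb. *Ugt1a9*, listed by the study among the biotransformation targets of PPARα, had 5.76 CPM per kb, and *Ugt1a5* had 4.36. *Ugt1a10*, *Ugt1a7c* and *Ugt1a2* had 0.117, 0.0324 and 0.0328 CPM per kb.

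In *Ugt1a1* the shared exons make up 1311 of 2224 bases, and 913 bases lie upstream of them. How the authors' counting treated reads in the shared exons is not given in the sources used here, so the *Ugt1a* levels are uncertain. Scaled to the bases outside the transcript used for any other member, 1 transcript per gene, *Ugt1a1* would stand at 142.1 CPM per kb in place of 58.3, and the *Ugt1a* sum at 218.4 in place of 90.4. Outside the exons of any other gene on either strand lay 385 bases in *Ugt1a1* and 127 in *Ugt1a6a*. Scaled to these bases, the genes would stand at 336.9 and 206.1 CPM per kb and the *Ugt1a* sum at 596.4. On its own strand alone *Ugt1a1* has 913 such bases, which again gives 142.1 CPM per kb. *Ugt1a6b*, with 859 such bases, would stand at 27.7. The ratio of the *Ugt1a6* genes thus differs with the scale, with *Ugt1a6a* the higher on each. The 127 bases are exclusive by place only, since every 100-base window of *Ugt1a6a* also occurs in *Ugt1a7c* transcripts. Reads from them cannot be assigned by sequence, so 206.1, the *Ugt1a6* ratio and the sum of 596.4 are uncertain on this scale. The junctions below show where the upstream exon ends and the sequence shared by all 8 genes begins. Capitals give the last 30 bases of the upstream exon, which for *Ugt1a6a* also lies in *Ugt1a7c* transcripts, and lower case the first 30 of the shared exons, chr1:88215044-88215073, all coding, plus strand, from the GENCODE transcripts of GRCm38.
*Ugt1a1*, upstream part chr1:88212842-88212871: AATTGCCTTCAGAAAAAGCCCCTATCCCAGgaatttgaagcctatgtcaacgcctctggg
*Ugt1a6a*, upstream part chr1:88139302-88139331: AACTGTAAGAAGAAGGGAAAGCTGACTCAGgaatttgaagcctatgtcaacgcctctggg
*Ugt1a9*, upstream part chr1:88071649-88071678: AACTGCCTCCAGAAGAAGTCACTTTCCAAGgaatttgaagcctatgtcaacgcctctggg
*Ugt1a5*, upstream part chr1:88166874-88166903: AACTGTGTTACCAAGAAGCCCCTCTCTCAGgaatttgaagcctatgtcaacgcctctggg
This upstream exon of *Ugt1a9* lies 143365 bases upstream of the shared exons and that of *Ugt1a1* 2172 bases. In the same windows *Ugt1a6b* carries the letters of *Ugt1a6a*, and *Ugt1a2* those of *Ugt1a5*, so this stretch separates neither pair.

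The *Ugt2* genes and part of the sulfotransferases are neighbours. At chr5:86889767-87591594, a stretch of 701.8 kb, lie 13 of the 61 genes, with 11 of them above the floor and 26.0% of the summed CPM of all members. Levels there differed by up to 1426-fold per kb, between *Ugt2b5* and *Sult1e1*. The 7 *Ugt2b* genes and *Ugt2a3* reached 0.945 to 394.6 CPM per kb, and the 3 *Sult1* genes at the distal end 0.277 to 36.8. *Ugt2b37* lies between *Ugt2b5* and *Ugt2a3* and was lower than either.

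**Figure D3:**
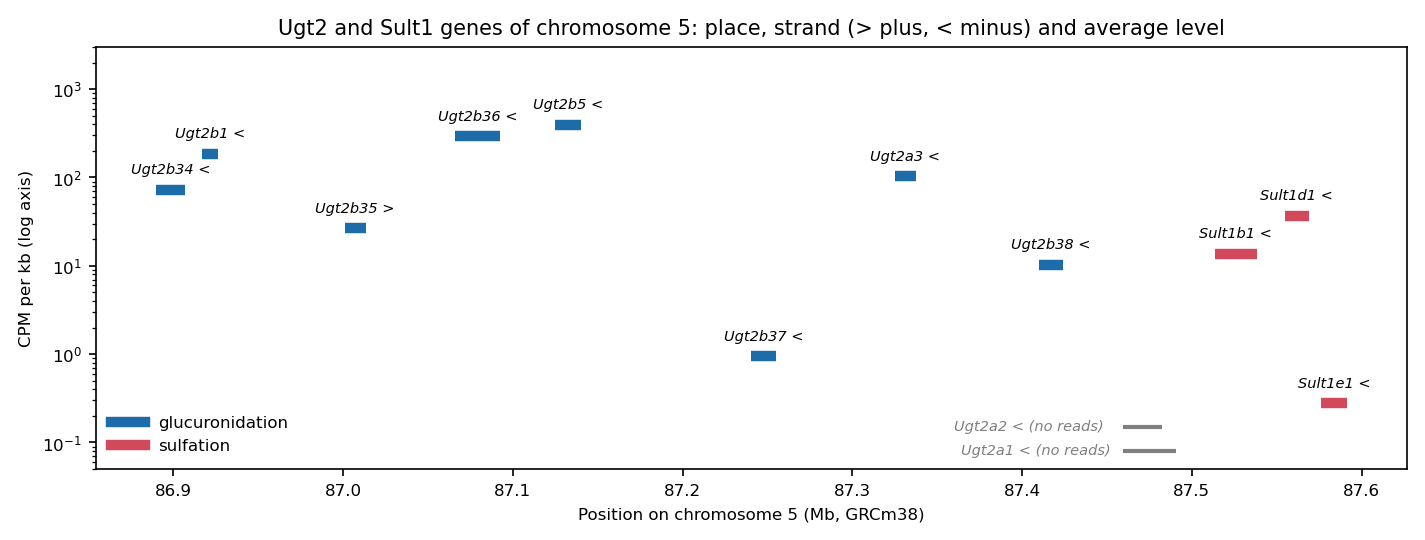
Place of the *Ugt2* and *Sult1* genes on chromosome 5 (GRCm38, in Mb) against their average level in CPM per kb on a log axis, with the strand beside each name. Bars span the genes, grey bars at the foot mark the 2 genes with no reads, and *Ugt2b5* at 394.6 and *Ugt2b37* at 0.945 CPM per kb are 2 neighbouring genes far apart in level.

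Across all members 16 loci were found when genes under 1 Mb apart were joined. Of these, 11 held more than 1 gene and 56 of the 61 genes. Within a locus some genes had like levels, such as *Gstm7* and *Gstm2* with 48.3 and 39.8 CPM per kb, and others were far apart. The 8 *Ugt1a* genes spanned 1801-fold per kb and the 7 *Gstm* genes 132.6-fold. The *Ugt1a* span would be wider on the other scales given for that locus. Spans reached 77871-fold at the *Sult2a* locus, 13116-fold at the *Gstt* locus and 6495-fold among the *Gsta* genes of chromosome 9. In each of these the lowest gene was near the floor. *Gsta3* stood alone on chromosome 1, away from the 5 other alpha-class genes on chromosome 9.

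Sulfation rested on 2 genes. *Sult2a8*, a hepatic bile acid sulfotransferase, had 345.3 CPM per kb and *Sult1a1*, the main phenol sulfotransferase, 252.5 CPM per kb. *Sult2a8* alone gave 59.5% of the class in CPM and 52.3% per kb. *Sult1d1*, which acts on catecholamines and other phenols, followed with 36.8 CPM per kb. *Sult1b1*, which sulfates thyroid hormones, had 13.8 CPM per kb. *Sult5a1* had 6.99, *Sult1c2* 2.50 and *Sult2a7* 1.52 CPM per kb. *Sult1e1*, the estrogen sulfotransferase, was the eighth with 0.277 CPM per kb.

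The other sulfotransferases were at or near the floor. *Sult2b1*, which sulfates cholesterol in skin, had an estimated 9.02 reads over the 8 libraries, and *Sult4a1*, known from brain, had 5.004. *Sult2a1*, *Sult3a1*, *Sult2a2*, *Sult2a4*, *Sult2a5* and *Sult2a6* had between 1.01 and 3.98 estimated reads each. *Sult2a3*, *Sult3a2* and *Sult1c1* had none. Several *Sult2a*, *Sult3a* and *Sult1e1* genes are known as female-predominant in mouse liver, and of the 11 genes of these groups, 9 lay under 1 CPM in these male livers, 2 of them without reads. The exceptions were *Sult2a8* and *Sult2a7*, which lie side by side at chr7:14410686-14446769 and chr7:14465051-14494230. As a background, 61.3% of all genes with reads reached 1 CPM and 38.0% reached 10 CPM. Of the 27179 genes listed, 8242 had no reads. No female liver was measured, so a difference by sex was not tested. All 7 genes of a list of male-predominant liver transcripts lay above 10 CPM, led per kb by *Mup20*, which codes for a major urinary protein, with 2517 CPM per kb.

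Glutathione conjugation was led by 3 genes of 3 classes. *Gstp1* of the pi class had 1529 CPM per kb and ranked 51 among genes with a known length. *Gsta3*, an alpha-class enzyme with high activity toward aflatoxin epoxide and on the study's list of biotransformation targets, had 1190 CPM per kb. *Gstm1* of the mu class had 1095 CPM per kb. Which gene came first depended on the scale, since *Gsta3* led in CPM with 1733 and per coding kb with 2614. None of the 3 differed by more than 1.5-fold from its neighbour in that order per kb, and no spread between mice was at hand to test them.

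The next genes were several-fold lower. *Gstt1*, a theta-class enzyme that acts on small halogenated compounds, had 246.1 CPM per kb. *Gsto1*, an omega-class thiol transferase, had 99.3 and *Gstm6* 98.0 CPM per kb. *Gsta4*, which conjugates the lipid peroxidation product hydroxynonenal, had 68.0 and *Gstt2* 67.5 CPM per kb. The remaining members of the mu class, *Gstm7*, *Gstm2*, *Gstm3*, *Gstm4* and *Gstm5*, had between 8.26 and 48.3 CPM per kb, so every mu-class gene was above the floor by a wide margin. In the alpha class *Gsta2* had 20.5 CPM per kb while *Gsta1*, *Gsta13* and *Gsta5* had 0.873, 0.177 and 0.0105. *Gsto2* and *Gstt4*, neighbours of abundant genes of their own class, had 0.0948 and 0.0188 CPM per kb.

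The pi-class level needs a caveat on near-identical copies. *Gstp1* (chr19:4035407-4037985) lies next to *Gstp2* (chr19:4040285-4046023) and *Gstp3*, all on the minus strand. A processed pseudogene, *Gstp-ps* (chr1:192073820-192074450, minus strand), is outside the gene pattern but had 900.8 CPM, or 1428 CPM per kb, nearly the level of *Gstp1*. *Gstp2*, an intact gene, had 4.98 and *Gstp3* 26.1 CPM per kb. Over 631 aligned bases the pseudogene differed from the coding sequence of *Gstp1* at 15 and from that of *Gstp2* at 5, so it is 97.6% and 99.2% identical to them. Of the 12 differences between *Gstp1* and *Gstp2*, the pseudogene shares 11 with *Gstp2*, and the exception is G35C, counted from the start codon of *Gstp1*. The 60 bases with the most differences from the pseudogene are printed below, coding bases 271 to 330 of *Gstp1*, with capitals for letters that differ from *Gstp1*. All are exonic, minus strand of GRCm38, from GENCODE transcripts.
*Gstp1*, chr19:4036694-4036753: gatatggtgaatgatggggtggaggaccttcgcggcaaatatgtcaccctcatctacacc
*Gstp-ps*, chr1:192074123-192074182: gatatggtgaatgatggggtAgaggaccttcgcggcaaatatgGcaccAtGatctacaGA
*Gstp2*, chr19:4040988-4041047: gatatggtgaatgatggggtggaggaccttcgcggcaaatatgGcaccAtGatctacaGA
In this stretch 5 of the 6 changes of the pseudogene are also those of *Gstp2*, among them T314G and C319A, and G291A is found in the pseudogene only. Of the 532 windows of 100 bases in the pseudogene, 210 occur in *Gstp1* and 272 in *Gstp2*. Reads from such windows cannot be assigned to a gene by sequence, and which of the 3 genes gave the reads counted on the pseudogene was not tested.

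Close copies were found in other subfamilies too. Among 141 pairs of members with reads in the same family, 16 had over 90% identical coding bases, and 18 of the 56 members were in such a pair. In 11 of the 16 pairs the levels per kb differed by more than 10-fold. The pairs share genes, and some of these ratios rest on very few reads, as with *Gsta5*, which had an estimated 2.01 in all. *Gsta1* and *Gsta13* were the closest with 99.7% identity. *Ugt1a6a* and *Ugt1a6b*, 98.4% identical, had 11.4 and 10.3 CPM per kb of transcript. *Ugt2b5* and *Ugt2b38* were 97.0% identical, with 394.6 and 10.2 CPM per kb. *Ugt1a9* and *Ugt1a10* were 95.3% identical, *Ugt3a2* and *Ugt3a1* 93.3%, and *Sult2a1* and *Sult2a5* 94.9%. *Gsta2* was 98.5% identical to *Gsta5* and 97.5% to *Gsta1*. *Ugt2b5* and *Ugt2b37* were 94.7% identical, and *Sult2a4* was 93.7% identical to *Sult2a1*. These levels are uncertain wherever the counting could split reads between copies. In *Gstt3*, 23.9% of the windows of 100 bases also occur in the predicted gene *Gm20441*. In contrast, 27 of the 56 members had no window of 100 bases in common with another gene, among them *Gsta3*, *Ugt2b36*, *Ugt2b1* and *Sult2a8*.

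Of 9 other genes of glutathione transferases and related enzymes, which the gene pattern leaves out, 3 lay above 10 CPM and 4 under 1 CPM. Among all genes with reads 38.0% reached 10 CPM. *Mgst1*, a microsomal enzyme of another protein superfamily, had 2710 CPM per kb, more than any member. *Gstz1*, which acts in tyrosine breakdown as maleylacetoacetate isomerase, had 508.5 and *Gstk1*, the kappa-class gene, 136.8 CPM per kb. *Mgst3* had 8.10 CPM per kb and *Mgst2* 0.0600.

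Each class depends on a cofactor, and most but not all of the listed genes that supply it had reads above 10 CPM. For glucuronidation, *Ugp2*, which makes UDP-glucose, had 113.6 and *Ugdh*, which oxidizes it to UDP-glucuronic acid, 44.8 CPM per kb. All 4 genes of this list were above 10 CPM. For sulfation, 4 of the 6 genes measured were above 10 CPM. PAPS synthesis rested on *Papss2*, with 35.6 CPM per kb against 0.661 for *Papss1*, and the sulfate transporter gene *Slc26a1* had 31.3. *Slc13a1*, which codes for another sulfate transporter, had no reads. For glutathione, 7 of 11 genes were above 10 CPM, led by the transsulfuration genes *Cbs* with 192.6 and *Cth* with 159.8 CPM per kb. *Gclc*, the catalytic subunit of the rate-limiting ligase, had 27.6 CPM per kb. The cystine transporter gene *Slc7a11* had an estimated 5.03 reads in all.

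Of the 12 genes on a list of other methyl and acyl transferases 11 were above 10 CPM. *Gnmt*, glycine N-methyltransferase, had 1660 CPM per kb, but its substrate is glycine, so this level does not measure conjugation. *Inmt* had 357.9 and *Nnmt*, which methylates nicotinamide, 233.4 CPM per kb. The acyl transferase genes were lower, with *Glyat* at 123.7, *Baat* at 112.8, *Nat8* at 12.4, *Nat2* at 10.3 and *Nat1* at 0.967 CPM per kb. Of the 10 measured genes for deconjugation, mercapturate formation and related hydrolysis, 7 were above 10 CPM, led by the epoxide hydrolase gene *Ephx2* with 713.6 CPM per kb. *Ggt1*, which starts the breakdown of glutathione conjugates, was at 0.105 CPM.

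Of 10 transporter genes 8 were above 10 CPM. *Slco1b2*, an uptake carrier, had 223.8 CPM per kb and *Abcb11*, the bile salt export pump, 80.6. *Abcc3*, which moves glucuronides into blood, had 70.6 and *Abcc2*, which moves conjugates into bile, 23.2 CPM per kb. Among 15 transcription factor genes 14 were above 10 CPM. *Hnf4a* had 186.7, *Nr1i3*, which codes for the xenobiotic receptor CAR, 151.3 and *Ppara* 97.2 CPM per kb. *Nfe2l2*, which codes for NRF2, had 16.3 CPM per kb. The exception was *Cux2*, a female-predominant factor of mouse liver, at 0.613 CPM.

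Promoter windows of 300 bases, 250 before to 50 after the RefSeq start (GRCm38.p6), were found for 46 of the 56 members, 56 windows in all. The genes not matched were *Gsta4*, *Gsta5*, *Gsta13*, *Gstt2*, *Sult2a1*, *Sult2a2*, *Sult2a7*, *Sult4a1*, *Ugt1a6b* and *Ugt3a2*. Both strands were searched for TGACNNNGC, the core of the antioxidant response element bound by NRF2, in which N is any base. It occurred in 3 of 56 windows (5.36%), all of glutathione S-transferases, and in 12.4% of 32851 windows of all genes. The core GCGTG of the xenobiotic response element, bound by the aryl hydrocarbon receptor, occurred in 12 of 56 windows (21.4%) and in 32.4% of all windows. Of the 10 genes with it 6 were glutathione S-transferases, 3 sulfotransferases and 1 a glucuronosyltransferase, *Ugt1a5*. Neither letter string was more frequent among the members than among all windows.

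Strict forms of PPARα and HNF1 motifs were absent from these windows. The direct repeat of AGGTCA with 1 base between the copies occurred in 0 of 56 member windows and in 13 of 32851 windows. The HNF1 palindrome, GTTAAT and ATTAAC with 1 base between, occurred in 0 and 3. A missing match says only that these letters are not in the window. The 3 matches to the antioxidant core are shown with 20 bases on each side, the match in capitals, 5′ to 3′ on the strand of the gene.
*Gsta3*, chr1:21240444-21240492, plus strand: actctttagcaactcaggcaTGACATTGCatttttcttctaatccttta
*Gstm7*, chr3:107931715-107931763, minus strand: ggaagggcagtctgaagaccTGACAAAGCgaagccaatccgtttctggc
*Gstm5*, chr3:107895792-107895840, plus strand: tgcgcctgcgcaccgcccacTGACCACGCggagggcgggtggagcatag
The matches begin 121 bases before the start in *Gsta3*, 129 in *Gstm7* and 42 in *Gstm5*. In *Gstm5* the last 5 bases of the match are also a match to the xenobiotic core on the other strand. The 3 genes had 1190, 48.3 and 8.26 CPM per kb, so the matches lay in genes of different level. The lowest of them, *Gstm5*, was still above 75.3% of the genes with reads and a known length.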

How the data were processed

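Liver RNA was sequenced by the authors from 4 WT and 4 V227A mice. Per the submitters' processing notes and the study's methods, reads were trimmed with Trimmomatic, checked with FastQC, aligned to GRCm38 with STAR, counted with featureCounts and compared by the authors with edgeR. Tool versions, the annotation and the strand setting are not given in the sources used here. The deposited table holds 27179 genes with the authors' average log2 CPM and the authors' own comparison of the genotypes (log2 fold change, F, p-value and FDR). Only the average was used. Columns with values of single libraries numbered 0.

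The level of a gene was taken as the CPM of its average less the CPM of the lowest average, -3.78 on the log2 scale, at which 8242 genes lie. A prior count of 2 and the floor give the mean library size. Of 2378 genes with 1 to 5 estimated reads, 99.9% then had totals within 0.1 of a whole number, against 35.3% with a prior count of 1. Transcript lengths, known for 94.8% of genes with reads, and exons came from GENCODE vM21, and promoters from RefSeq. Coding sequences were aligned with Biopython 1.88, because no protein table was used here. Other steps used Python 3.11.15, pandas 2.3.3, numpy 2.4.6, scipy 1.17.1 and matplotlib 3.10.9. The steps were tested on simulated data.

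Named genes are the 8 members of each class with the highest level per kb, the highest genes of each list, *Gsta3* and *Ugt1a9*, and members over 90% identical to another; 1 gene of a list is not reported here. *Gstp-ps*, the pi-class differences, the members at the floor and the further examples were chosen after their values were seen. Members and lists were chosen with earlier results of these data known.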

Additional observations from a re-analysis of the deposited data

How the results depend on the processing

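The table holds pooled averages and no values of single libraries. No library could therefore be left out, and no analysis by mouse, paired or not, was possible. Only the length scale, the member rules and the floor could be varied. Of 43 alternative values 22 lay within the counting interval or within 1.5 times the main count and 21 did not. Sums and levels on another length scale have another unit than the interval and were among those 21. The tally therefore does not measure how stable the results are. Counting only members at an average log2 CPM of at least 0 left 7 sulfotransferases in place of 16. Per kb the summed levels were 1284, 659.8 and 4635 for glucuronidation, sulfation and glutathione conjugation, and the shares of the highest member 30.7%, 52.3% and 33.0%, the last for *Gstp1* in place of *Gsta3* with 32.4% in CPM. Adding *Gstk1*, *Gstz1*, *Gstcd* and *Mgst1* to *Mgst3* raised glutathione conjugation to 9494 CPM. Summing members over 90% identical gave *Ugt2b5* and its copies 27.3% in place of 26.5%. Per coding kb the highest members stood at 461.1 (*Ugt2b5*), 874.8 (*Sult2a8*) and 2614 (*Gsta3*). With a prior count of 1 the reads per library in the 56 members fell from 257189 to 128595. Alternatives chosen after seeing the data were the exon bases outside the 1 transcript used for each other member, which gave 1412, 659.8 and 4635 CPM per kb, those in no exon of any other gene, which gave 1790, 670.5 and 4648 CPM per kb, and the addition of *Gstp-ps*, which raised glutathione conjugation to 6253 CPM and made *Gstp1* its highest member with 34.5%. Each move follows from the alternative's own construction. With no values per mouse, the spread between animals is unknown.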
